A study of Mus musculus with 3 samples.

Results

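This account follows 7 gene models in nascent RNA of a mouse pancreatic cancer cell line: Prl2c2 and its close relatives Prl2c1, Prl2c3, Prl2c4 and Prl2c5, together with Nrn1 and Tnni2. They were picked by name out of 22658 models. Prl2c2, Nrn1 and Tnni2 were picked because they lay more than 2-fold higher in grown-out than in uninduced cells, and the other Prl2c models because they resemble Prl2c2 in sequence. The line, NB490, carried in all conditions an inducible shRNA against PDX1, a transcription factor of the pancreas, under puromycin selection. The 3 conditions were uninduced cells, cells given doxycycline for 48 h, and cells that had grown out under doxycycline for over 3 weeks. Newly made RNA was marked with 2 mM bromouridine during 30 min and captured with an antibody (Bru-seq), so the reads report transcription in that window. Each condition is 1 library. Cells given doxycycline but lacking this shRNA were not analysed here, and the labels do not say whether the line is 1 clone, so doxycycline, the shRNA and time in culture cannot be told apart.

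The libraries held 51006774 reads (uninduced), 48418864 (48 h) and 41632296 (grown out), read back from the RPKM values. Pdx1 itself had 1.59, 1.05 and 1.41 RPKM in that order. Against uninduced cells it was 1.51-fold lower at 48 h (1.28 to 1.77). The grown-out over uninduced fold of 0.891 had an interval that included no change (0.766 to 1.04). These values report transcription, and the knockdown of Pdx1 was not measured here. Of 8 markers of duct epithelium, 6 were measured, among them Krt8, Krt7 and Cdh1. Epcam stayed at or under 0.0984 RPKM and Cldn4 at or under 0.0649 RPKM in each library. Spp1, the highest of the list, had 98.6, 40.0 and 32.3 RPKM (uninduced, 48 h, grown out), and Krt19 had 13.6, 8.01 and 10.1 RPKM. In grown-out against uninduced cells, 3 of the 6 were higher and 2 lower beyond counting error, against 33.6% and 29.5% of measured genes. With no replicate, each difference here and below compares 2 libraries, and a 95% interval covers counting error only.

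Mice carry an expanded family of prolactin-like genes on chromosome 13, most of them known from the placenta. The Prl2c genes encode the proliferins, secreted glycoprotein hormones of trophoblast giant cells that were also found in growing mouse fibroblast lines after serum was added and that stimulate blood vessel growth. Proliferin binds the receptor encoded by Igf2r, while prolactin acts through Prlr, the kinase Jak2 and the Stat5 factors. Nrn1 encodes neuritin, a small membrane-anchored protein that promotes neurite growth and is induced by activity in neurons. Tnni2 encodes the inhibitory subunit of the troponin complex of fast skeletal muscle, which holds actin and myosin apart until calcium arrives.

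The Prl2c copies are so alike that short reads can match more than 1 of them. Of the 7 members, RefSeq's GRCm38.p6 promoter table held Prl2c3 and Prl2c5, and their upstream stretches are shown because they make that likeness visible. Both end near the first annotated base of the gene. Capitals mark bases that differ between the copies or are missing in the other.

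Prl2c3, chr13:12800094-12800329, minus strand: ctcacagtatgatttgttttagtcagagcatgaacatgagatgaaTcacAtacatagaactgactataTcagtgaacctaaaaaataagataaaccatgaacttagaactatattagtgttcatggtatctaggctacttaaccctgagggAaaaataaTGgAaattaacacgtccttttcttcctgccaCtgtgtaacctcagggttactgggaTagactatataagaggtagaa
Prl2c5, chr13:13182466-13182700, plus strand: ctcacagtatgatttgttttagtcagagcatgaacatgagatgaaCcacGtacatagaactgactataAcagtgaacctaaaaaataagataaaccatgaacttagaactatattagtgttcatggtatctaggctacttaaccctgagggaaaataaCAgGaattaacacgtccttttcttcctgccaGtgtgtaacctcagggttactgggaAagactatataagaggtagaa

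Over 236 aligned positions, 227 were identical (96.2%), 8 were substituted and 1 was a gap. The letters TATATAA occur once in each stretch, searched on both strands, as they do in 3.24% of the 32851 promoter windows of the table. The letters TGANTCA, where N is any base, occur once in the Prl2c3 stretch, as TGAATCA, and not in that of Prl2c5. They occur in 7.81% of all windows. Such matches describe the letters only.

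Prl2c2, the first proliferin gene (chromosome 13, 13088391 to 13097597, minus strand), was the member with the widest range of levels. It had 344 reads in the uninduced library, 219 at 48 h and 2378 in grown-out cells. Per length this was 0.733 RPKM (95% Poisson interval 0.657 to 0.814) uninduced, 0.491 RPKM (0.428 to 0.561) at 48 h and 6.20 RPKM (5.96 to 6.46) grown out. The 3 intervals do not overlap. By level it stood at place 6797 of the 7915 measured genes in uninduced cells, 7723 at 48 h and 705 in grown-out cells. A gene counted as measured with a mean of at least 0.5 RPKM over the 3 libraries.

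Against uninduced cells, Prl2c2 was 8.47-fold higher in grown-out cells (95% counting interval 7.56 to 9.51), the highest log2 ratio of all measured genes at 3.00. At 48 h it was lower, at 1.49-fold (1.26 to 1.77). Grown-out against 48 h cells gave 12.6-fold higher (11 to 14.6), again the highest log2 ratio of the measured genes, with the same grown-out library in both.

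Nrn1 (chromosome 13, 36817495 to 36826323, minus strand) was well transcribed in all 3 libraries, with 1382 reads uninduced, 1065 at 48 h and 2526 grown out. Its levels were 3.07 RPKM (2.91 to 3.23) uninduced, 2.49 RPKM (2.34 to 2.65) at 48 h and 6.87 RPKM (6.61 to 7.15) grown out, with no overlap of intervals. By level it stood above Prl2c2 in each library, at place 1951 of the measured genes uninduced, 2530 at 48 h and 608 grown out. It was 2.24-fold higher in grown-out than in uninduced cells (2.10 to 2.39). At 48 h it was 1.23-fold lower than in uninduced cells (1.14 to 1.34).

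Tnni2 (chromosome 7, 149628373 to 149630310, plus strand) had few reads, 36.9 uninduced, 30.7 at 48 h and 72.4 grown out. Its levels were 0.374 RPKM (0.264 to 0.516) uninduced, 0.327 RPKM (0.224 to 0.469) at 48 h and 0.897 RPKM (0.698 to 1.12) grown out. The uninduced and 48 h intervals overlap, and both lie below that of the grown-out library. The gene reached the minimum of 0.5 RPKM only through the grown-out library, with a mean of 0.533. It was 2.40-fold higher in grown-out than in uninduced cells (1.58 to 3.65), while the 48 h over uninduced fold of 0.875 had an interval that included no change (0.530 to 1.46).

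**Figure D1:**
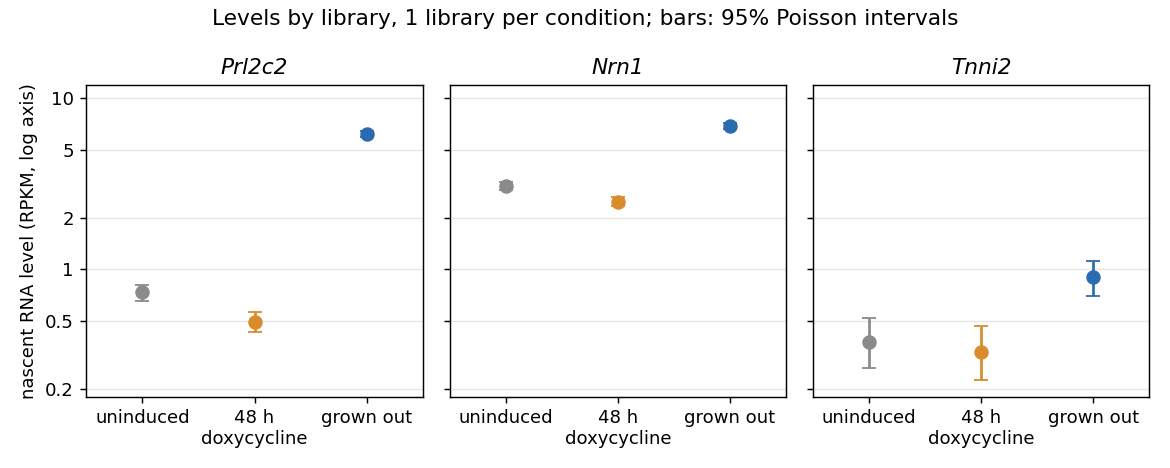
Nascent RNA levels of Prl2c2, Nrn1 and Tnni2 in RPKM on a log axis, 1 point per library, with 95% Poisson intervals. The grown-out point is the highest for each gene (6.20, 6.87 and 0.897 RPKM), and the 48 h point lies below the uninduced one, with overlapping intervals for Tnni2.

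Thus 3 of the 7 members were measured, and these 3 were past 2-fold higher in grown-out against uninduced cells. Past 2-fold means a log2 ratio of at least that size with an interval that excludes no change. Of all 7915 measured genes, 13 or 0.164% were past 2-fold higher in that comparison, which served to choose the members. At 48 h none of the 3 was past 2-fold, against 0.0253% of measured genes past 2-fold higher and 0.72% lower. Lower at 48 h beyond counting error were 2 of the 3, against 30% of all measured genes. In grown-out against 48 h cells all 3 were past 2-fold higher (12.6-fold, 2.76-fold and 2.74-fold for Prl2c2, Nrn1 and Tnni2), where 0.708% of measured genes were. That comparison uses the grown-out library by which the 3 genes were chosen, and through which Tnni2 reached the minimum level, so nothing is read from the count. Just inside the 2-fold line in grown-out against uninduced cells lay Rpph1 and 2810403D21Rik, at log2 ratios of 1.08 and 1.02. Just outside lay Plekhj1 at 0.98, and Hist1h3c at 1.09 with an interval that included no change.

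**Figure D2:**
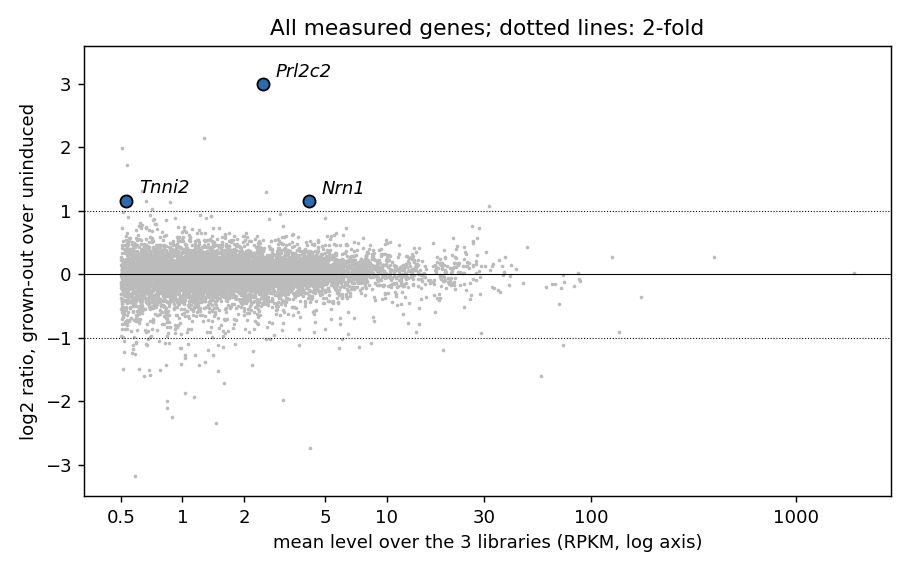
Log2 ratio of grown-out over uninduced cells against the mean level over the 3 libraries for the 7915 measured genes, 1 grey dot each, with Prl2c2, Nrn1 and Tnni2 in blue. Prl2c2 stands alone at 3.00, while Nrn1 at 1.15 and Tnni2 at 1.16 lie close above the 2-fold line.

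The remaining Prl2c models carried few reads, and none reached the minimum level. Prl2c1 (chromosome 13, 27941271 to 27949577, plus strand) had 2 reads uninduced, 1 at 48 h and 15 grown out. Prl2c5 (chromosome 13, 13275049 to 13284107, plus strand) had 1, 0 and 7 reads in that order, where the Poisson interval for 0 reads reaches 0.00841 RPKM. A further model named Prl2c, next to Prl2c3, had 2, 1 and 13.5 reads.

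Each of these was higher in the grown-out library on a handful of reads. Grown-out against uninduced cells gave ratios of 9.19 for Prl2c1 (2.14 to 82.8), 8.58 for Prl2c5 (1.10 to 387) and 8.26 for Prl2c (1.8 to 72.7). For Prl2c5 in grown-out against 48 h cells, with 7 reads against 0, the lower end of the counting interval was 1.68-fold. Against uninduced cells the intervals start at 1.10 for Prl2c5, 1.8 for Prl2c and 2.14 for Prl2c1, and all reach far above the ratio of Prl2c2.

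Set against the reads on Prl2c2, the models Prl2c1, Prl2c5 and Prl2c each held less than 1% in every library. Prl2c1 held 0.578% of the reads on itself and Prl2c2 in the uninduced library (0.0701 to 2.07, exact binomial interval), 0.455% in the 48 h library (0.0115 to 2.51) and 0.627% in the grown-out library (0.351 to 1.03). For Prl2c5 the shares were 0.290%, 0% and 0.294%, and 0% at 48 h has an upper bound of 1.67%. For Prl2c they were 0.578%, 0.455% and 0.544%. These are shares of reads, and Prl2c was counted over 467 bp, against 9207 bp for Prl2c2. Per length Prl2c had 0.0840, 0.0442 and 0.693 RPKM (uninduced, 48 h, grown out), against 0.733, 0.491 and 6.20 RPKM for Prl2c2. The intervals of the read shares overlap between the libraries within each model. Those of the RPKM levels do not all overlap. For Prl2c the grown-out one (0.356 to 1.14) lies above the uninduced (0.0102 to 0.303) and 48 h ones (0.00112 to 0.246). Whether these are reads of Prl2c2 transcripts that matched a similar copy was not tested, and the reverse was not tested either, so the Prl2c2 value may hold reads of other copies.

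**Figure D3:**
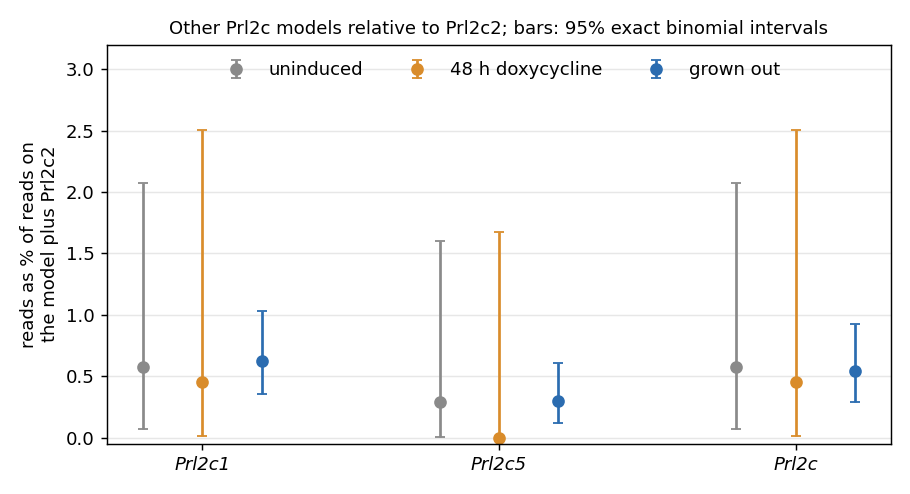
Reads on Prl2c1, Prl2c5 and Prl2c as a percent of the reads on each model plus Prl2c2, by library, with 95% exact binomial intervals. All points lie between 0% and 0.627%, and the intervals of the 3 libraries overlap for each model.

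Prl2c3 and Prl2c4 could hardly gather reads in these files. Their counted lengths were 21 bp of a span of 9259 bp and 5 bp of 9243 bp, and Prl2c was counted over 467 bp of 5015 bp. Prl2c3 (chromosome 13, 12892326 to 12892346, minus strand, as counted) had 0, 0 and 0.154 reads (uninduced, 48 h, grown out). Prl2c4 (chromosome 13, 12883083 to 12883087, minus strand, as counted) had 0 reads in each library. The upper Poisson limits for Prl2c3 were 3.44 RPKM uninduced, 3.63 at 48 h and 4.22 grown out, of which only the grown-out one lies below the level of Prl2c2 in the same library. Those for Prl2c4 were 14.5, 15.2 and 17.7 RPKM, all above the levels of Prl2c2. Over so few counted bases these limits describe the counted stretch and not the whole gene. The GRCm38.p6 gene table lists Prl2c4 as an older name of Prl2c3.

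The larger prolactin cluster of chromosome 13, where Prl and the placental lactogen genes lie, was near silent. Its 23 models between 27149439 and 28243464 include Prl2c1. The other 22 together had 5 reads uninduced, 4 at 48 h and 3 in grown-out cells, with at most 2 reads on any model in any library, and 14 of them had none. In all, 31 models have a name that starts with Prl, 26 of them not members. Those 26 summed to 57 reads uninduced, 67 at 48 h and 58.5 grown out, mostly on Prlr, the prolactin receptor gene, with 48, 62 and 42 reads. The reads added in the grown-out library lay on Prl2c2 and its closest copies.

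The genes next to the members were read in the same libraries. Around Prl2c2, the nearest models outside the Prl2c group are Gpr137b-ps and Gpr137b, both under the minimum level. Gpr137b-ps had 440, 364 and 462 reads (uninduced, 48 h, grown out) and was 1.29-fold higher in grown-out than in uninduced cells (1.13 to 1.47). Gpr137b, a lysosomal membrane protein gene, had 479, 337 and 529 reads and was 1.35-fold higher (1.19 to 1.53). Like Prl2c2, it was lower at 48 h, by a fold of 1.35 (1.17 to 1.56). Nid1, which encodes the basement membrane protein nidogen, lies 432 kb away and had 106, 69 and 18 reads, 4.81-fold lower in grown-out than in uninduced cells (2.90 to 8.42). Lyst, a further neighbour, had 0.604, 0.566 and 0.577 RPKM. Within 5 Mb, 24 other measured genes had a median log2 ratio of 0.02 for grown-out over uninduced cells, between -0.63 and 0.47, and none was past 2-fold.

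The nearest neighbours of Nrn1 were Fars2, a mitochondrial tRNA synthetase gene 188 kb away, at 0.704, 0.800 and 0.753 RPKM (uninduced, 48 h, grown out), and F13a1, a clotting factor gene, with 2, 5 and 1 reads. Of the 10 nearest models, 5 were higher beyond counting error in grown-out against uninduced cells and 0 lower, by folds up to 1.28 (Lyrm4). The 4 measured ones, Cdyl, Fars2, Rreb1 and Ssr1, were all among these 5, where 33.6% of all measured genes were higher. Within 5 Mb, 27 other measured genes had a median log2 ratio of 0.12, between -0.94 and 0.35, and none was past 2-fold.

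Tnni2 lies directly behind Syt8 on the same strand, with 2069 bp between the models. Syt8, a synaptotagmin gene, had 0.976 RPKM uninduced, 0.590 at 48 h and 1.57 grown out. It was 1.61-fold higher in grown-out than in uninduced cells (1.37 to 1.89) and 1.66-fold lower at 48 h (1.35 to 2.03). The level of Tnni2 was 0.383 of that of Syt8 in uninduced cells, 0.555 at 48 h and 0.570 in grown-out cells. On its other side Lsp1, a leukocyte actin-binding protein gene on the same strand, had 68, 49 and 106 reads and was 1.91-fold higher in grown-out than in uninduced cells (1.4 to 2.63). Beyond it, Tnnt3, for a fast muscle troponin T, had 4, 1 and 3 reads. So the 3 adjoining genes Syt8, Tnni2 and Lsp1 were each higher in the grown-out library, and whether reads that run past the end of Syt8 enter the Tnni2 count was not tested. Within 5 Mb, 46 other measured genes had a median log2 ratio of 0.05, between -1.09 and 0.66, the highest being Syt8. Of the 46, 0 were past 2-fold higher and 1 past 2-fold lower, against 0.164% and 0.708% of all measured genes.

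**Figure D4:**
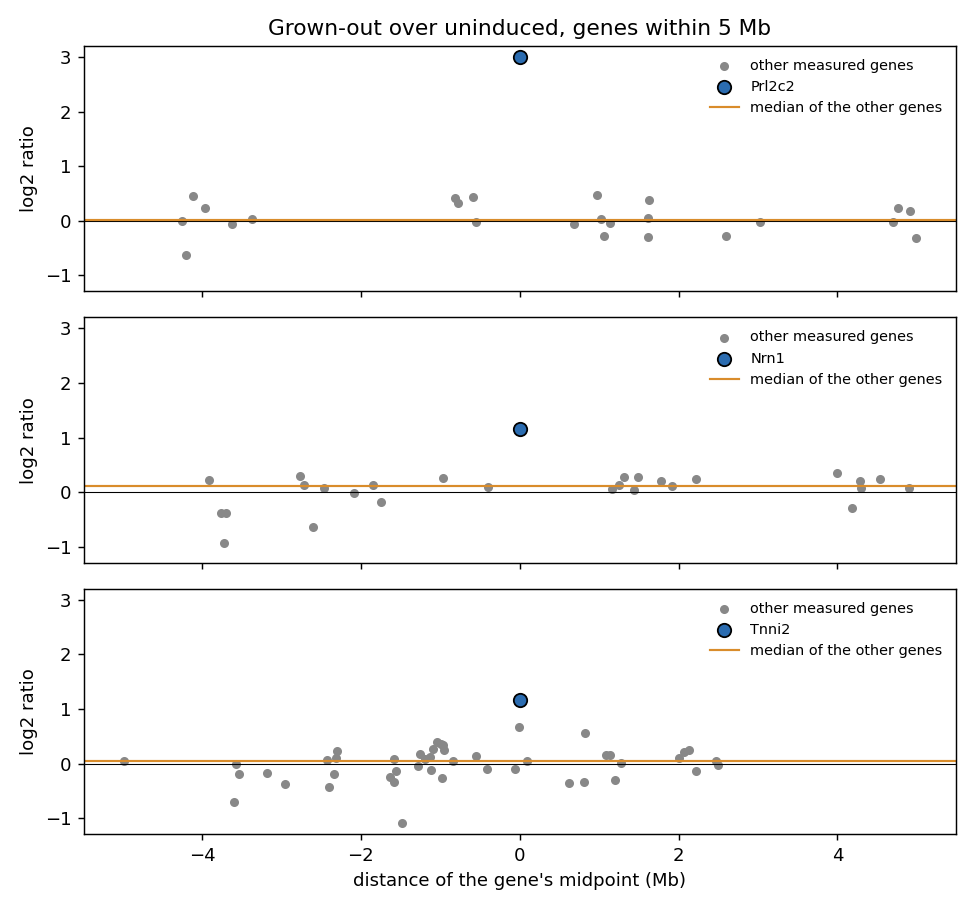
Log2 ratio of grown-out over uninduced cells for measured genes within 5 Mb of Prl2c2, Nrn1 and Tnni2, by distance in Mb, with the median of the other genes in orange (0.02, 0.12 and 0.05). Each named gene lies above every other measured gene in its panel, and Syt8 at 0.66 is the closest to Tnni2. The named genes were chosen by this ratio, so nothing is read from their place.

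Prl2c2 and Nrn1 share chromosome 13, which as a whole lay slightly higher in grown-out cells. Its 338 measured genes had a median log2 ratio of 0.13 for grown-out over uninduced cells, the highest of all chromosomes, while the other 7577 measured genes had one of 0.005. Without histone models and members, 309 genes gave 0.11. Higher beyond counting error were 54.7% of its measured genes, against 33.6% of all measured genes. Of the 13 genes past 2-fold higher, 6 lie on this chromosome, 4 of them histone models and the other 2 Prl2c2 and Nrn1. The 4 histone models had at most 20.6 reads in any library. Of the 13 genes, 5 had at least 100 reads in the grown-out library. Prl2c2 and Nrn1 were chosen by this ratio, at 3.00 and 1.15, so nothing is read from their distance to the chromosome median.

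Likeness of pattern over the 3 libraries was measured as the distance between genes in the pair of log2 ratios against uninduced cells. No measured gene lay within 0.5 of Prl2c2. The closest was the clone-named model BC057079 at 1.14, with 0.553, 0.657 and 2.62 RPKM (uninduced, 48 h, grown out), which unlike Prl2c2 was not lower at 48 h. Next came Hist1h3g at 1.35, Hist1h3i at 1.82, Nrn1 at 1.86 and Tnni2 at 1.87. Hist1h3g and Hist1h3i rested on few reads, 20.6 and 18.6 in the grown-out library. Their grown-out over uninduced intervals were wide, 1.89 to 17.5 and 1.12 to 6.49. Nrn1 and Tnni2 were near each other, at 0.13, though Tnni2's ratios carry wide intervals. Both were chosen by 1 of the 2 ratios, that of grown-out over uninduced cells, so their nearness follows in part from the choice. Near Nrn1 were also Hist1h3i at 0.23, the homeobox gene Dlx2 at 0.26 and the water channel gene Aqp5 at 0.28. Aqp5 had 2.19, 1.72 and 4.03 RPKM. Near Tnni2 were Hist1h3i at 0.11, Plekhj1 at 0.22 and Hist1h2ab at 0.30. Within 0.5 lay 17 genes for Nrn1 and 23 for Tnni2.

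In grown-out against uninduced cells, no measured gene of prolactin and proliferin signalling was higher beyond counting error. Of 12 listed genes 5 were measured, none past 2-fold in grown-out against uninduced cells, where 0.708% of measured genes were past 2-fold lower. Their median log2 ratio was -0.20, against 0.0082 over all measured genes. Jak2, the kinase behind the prolactin receptor, had 5.29, 4.33 and 3.54 RPKM (uninduced, 48 h, grown out) and was 1.5-fold lower in grown-out than in uninduced cells (1.46 to 1.54). Stat5b and Stat3 had 0.548 and 0.529 RPKM in grown-out cells, against 0.537 and 0.617 RPKM in uninduced cells. Socs3, a feedback inhibitor, had 1.10, 0.390 and 0.888 RPKM and was past 2-fold lower at 48 h, as 0.72% of measured genes were, at 2.81-fold (2.10 to 3.82). In grown-out against 48 h cells it was past 2-fold higher, as 0.708% of measured genes were, at 2.28-fold (1.66 to 3.13). Jak2 and Igf2r were lower beyond counting error in that comparison.

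The following were singled out after their values were seen. Igf2r, the proliferin receptor gene, had 0.486, 0.540 and 0.504 RPKM (uninduced, 48 h, grown out). Cish and Socs2, feedback inhibitors that are known targets of Stat5, lay under the minimum level, with 81, 48 and 17 reads for Cish and 75, 42 and 11 for Socs2. They were 3.89-fold (2.29 to 7) and 5.57-fold (2.94 to 11.6) lower in grown-out than in uninduced cells. With no minimum level, 2 of the 12 listed genes were past 2-fold lower, against 1.04% of 21775 models. Those models include silent ones, which cannot be called lower, so the 2 shares are not alike and nothing is read from them. Ghr, the growth hormone receptor gene, had 4786, 4736 and 2046 reads and was 1.91-fold lower in grown-out cells (1.81 to 2.01). Prlr itself stayed at or under 0.00801 RPKM.

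Relatives of Nrn1 and other genes that neurons induce on activity gave a mixed picture. Of 15 listed, 4 were measured, and in grown-out against uninduced cells 2 were higher and 0 lower beyond counting error, where 33.6% of measured genes were higher and 29.5% lower. None was past 2-fold, and the median log2 ratio was 0.05. Bdnf, a nerve growth factor relative, had 3.49, 2.78 and 4.39 RPKM (uninduced, 48 h, grown out) and was 1.26-fold higher in grown-out cells (1.22 to 1.30). Homer1, a synaptic scaffold gene, was 1.12-fold higher (1.07 to 1.17). Nr4a2 and Gadd45b had 1.5 and 1.11 RPKM in grown-out cells, against 1.55 and 1.39 RPKM in uninduced cells, with intervals that included no change. At 48 h, 3 of the 4 were lower beyond counting error, against 30% of measured genes. Nrn1l, the paralog of Nrn1, went the other way on 17, 5 and 4 reads, 3.47-fold lower in grown-out than in uninduced cells (1.13 to 14.2).

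No partner of Tnni2 in the troponin complex was measured. Of the 7 other subunit genes, Tnnt2, the cardiac troponin T gene, had the most reads, with 187, 80 and 90 (uninduced, 48 h, grown out), and was 1.70-fold lower in grown-out than in uninduced cells (1.31 to 2.21). Tnnc1, Tnnt1 and Tnni3 had at most 7.71 reads in any library, and Tnnc2 had none. Tropomyosin genes, whose products lie along actin and bind troponin in muscle, were transcribed at 11.2 RPKM (Tpm1), 8.52 RPKM (Tpm3) and 3.97 RPKM (Tpm4) in grown-out cells, against 13.6, 8.43 and 5.16 RPKM in uninduced cells. Of these 3, 2 were lower beyond counting error in grown-out cells, against 29.5% of measured genes, and Tpm2 was under the minimum level.

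**Figure D5:**
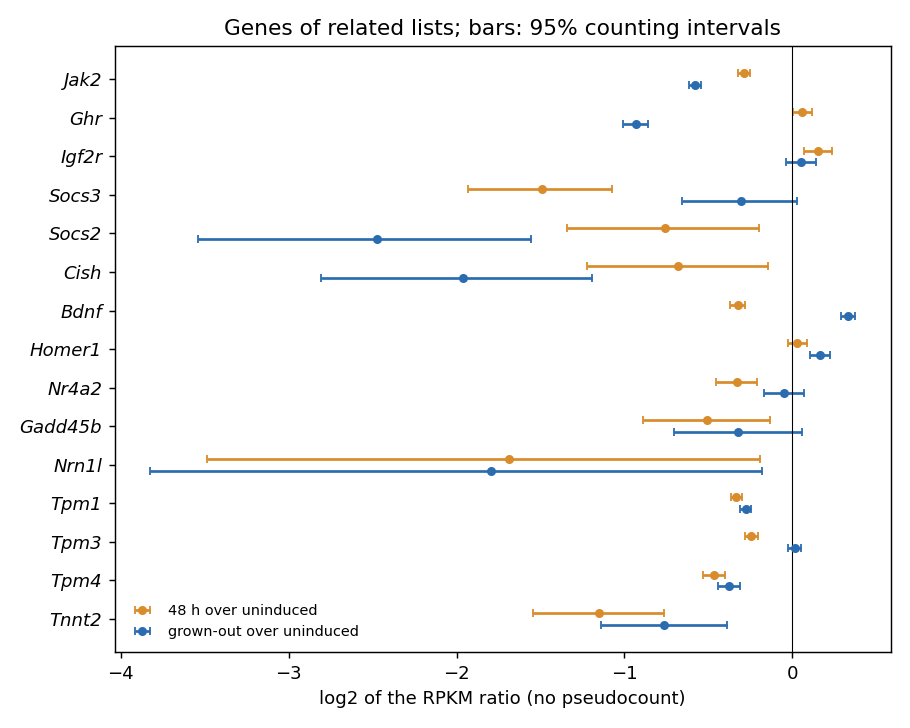
Log2 of the RPKM ratio at 48 h (orange) and in grown-out cells (blue), each over uninduced cells, for genes of the prolactin, neuronal activity, tropomyosin and troponin lists, with 95% counting intervals. Of the genes drawn, Bdnf and Homer1 have a grown-out interval wholly above 0, at folds of 1.26 and 1.12.

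Markers of the cell types best known for these genes were low, and none was measured. Of 15 skeletal muscle markers, 8 had no read in any library, among them Myod1, Myog and Ckm, and the list summed to 0.0299, 0.0746 and 0.0464 RPKM in uninduced, 48 h and grown-out cells. The 10 neuron markers found in the files summed to 0.0742, 0.0376 and 0.0409 RPKM. The 15 trophoblast and placenta markers summed to 0.375, 0.245 and 0.252 RPKM, and 5 had no read, among them Hand1, Tpbpa and Ascl2. Others were detected, with 57, 29 and 23 reads for Eomes (uninduced, 48 h, grown out), 34, 13 and 26 for Cdx2, 22, 21 and 4 for Esx1 and 277, 254 and 150 for Esrrb. The part of such cells in the Prl2c2 values was not tested. The 10 fibroblast markers summed to 0.0898, 0.0663 and 0.0534 RPKM. None of these sums was higher in grown-out than in uninduced cells except that of muscle, which rested on 38 reads in grown-out cells, against 32 in uninduced cells.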

How the data were processed

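Bromouridine-labelled RNA of 3 libraries was analysed, 1 per condition, so no test between conditions was possible. TopHat 1.4.1, bedtools 2.16.2, Bowtie 0.12.8 and CASAVA 1.8.2 are listed, with no settings, per the submitters' processing notes. The deposited estimated counts give, per the file headers, the reads of each whole gene model and need not be whole. The deposited RPKM values scale them by the counted length of the model and by a library total that was read back from the files. The deposited RPK column, a coverage signal in reads per base, was not used further. How the authors treated reads that match several genes is not given in the sources used here, and this bears on every Prl2c value. The coordinates of the models are those of the files. The notes name hg19, a human build, whereas the symbols are those of mouse genes, and the build of the coordinates is not given in the sources used here.

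Of 22658 models, 138 were left out, with a repeated symbol or a span over 3 Mb. A gene was called measured with a mean of at least 0.5 RPKM over the 3 libraries and a counted length of at least 300 bp, which 7915 models met. Log2 ratios used RPKM plus 0.05, which understates changes of low genes. Folds are plain RPKM ratios with exact conditional binomial 95% intervals, and levels carry exact Poisson 95% intervals, both from counts rounded to whole reads. A gene was past 2-fold when its log2 ratio reached that size and its interval excluded no change. The call was tested on simulated data with 200 changed genes. Intervals cover counting error only, and repeat reads of 1 molecule can make them too narrow. Python 3.11.15, scipy 1.17.1, Biopython 1.88, and edgeR 4.0.16 and DESeq2 1.42.0 for scaling factors only, were used.

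Members and lists were chosen with earlier results of these data known. Named besides the members were the 5 nearest models on each side of Prl2c2, Nrn1 and Tnni2, the 5 measured genes nearest to each in the 2 log2 ratios against uninduced cells, up to 4 members of highest mean RPKM per list, and the genes on either side of the 2-fold line. A gene that this rule names is not reported here. Names were matched to the GRCm38.p6 gene table: 6 of the 7 members matched as symbols and 1, Prl2c4, as an older name of Prl2c3. Alternatives were other pseudocounts, other scalings and other minimum levels.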

Additional observations from a re-analysis of the deposited data

Results flagged for a closer look

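Prl2c2 and Nrn1 were flagged because they lay on opposite sides of the uninduced library at the later and the earlier time, with both counting intervals excluding no change. The pattern is not particular to them, as Gpr137b, Syt8, Bdnf and Aqp5 also showed it. Its share over all measured genes was not counted. Taken singly, 33.6% of measured genes were higher in grown-out cells and 30% lower at 48 h beyond counting error. Prl2c2 was 8.47-fold higher in grown-out cells and 1.49-fold lower at 48 h, so that grown-out over 48 h came to 12.6-fold. Nrn1 was 2.24-fold higher in grown-out cells and 1.23-fold lower at 48 h, so that grown-out over 48 h came to 2.76-fold. With 1 library per condition the difference between the times was not tested.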

How the results depend on the processing

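A pseudocount of 0.5 brought the log2 ratio of grown-out over uninduced cells to 2.44 for Prl2c2, 1.05 for Nrn1 and 0.68 for Tnni2, which takes Tnni2 under 2-fold. It brought that of grown-out over 48 h cells to 2.76, 1.30 and 0.76 in the same order, and that of 48 h over uninduced cells to -0.31 for Prl2c2. A larger pseudocount shrinks ratios of low genes by construction. Of the 76 results recomputed, 59 stayed within the counting interval or within 1.5 times the count, and 0 changed direction. The 59 include log2 ratios of single genes under other minimum levels. Such a ratio does not depend on the minimum level, so these could not move. The number of measured genes past 2-fold higher in grown-out over uninduced cells, 13 as reported, was 6 with a pseudocount of 0.5, 4 with a mean of at least 2 RPKM and 35 with no minimum. For grown-out over 48 h cells, 56 as reported, it was 20, 20 and 103. For 48 h over uninduced cells, 2 as reported, it was 0, 0 and 10, and 6 with a pseudocount of 0.01. The chromosome 13 median became 0 with no minimum level, where silent models enter. Tnni2 had no value with a mean of at least 2 RPKM, being left out there. TMM and DESeq2 scaling moved log2 ratios by at most 0.04. The median without histone models and members was chosen after seeing the data. Depth limits Tnni2, at 72.4 reads or fewer, and all Prl2c models besides Prl2c2. No paired analysis was possible because each condition has 1 library.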
